A study of Mus musculus with 6 samples.

Results

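The genes described here are 10 regulators and markers of epithelial-mesenchymal transition (EMT), chosen by name: the transcription factors *Snai1*, *Snai2*, *Twist1*, *Twist2*, *Zeb1*, *Zeb2* and *Prrx1*, the intermediate filament gene *Vim*, and the splicing regulators *Esrp1* and *Esrp2*. All 10 had a probe set annotated to 1 gene symbol, 26 of the 34945 such probe sets on the mouse M430 2.0 array, and 9 of them were among the 12518 genes tested. The samples were 3 mammary tumors of acinar histology from *K14-cre*; *ApcCKO/+* mice, in which a keratin 14 promoter drives cre in mammary progenitor cells and 1 *Apc* allele is conditional, and 3 control glands of *cre*-negative mice of matched age. By the paper's account, the tumors carried the deleted form of the conditional allele, and their other *Apc* allele held a truncation mutation. Each sample was hybridized to 1 array. The age and the *Apc* genotype of the control mice are not given in the sources used here. The labels call the samples biological replicates without saying that each came from its own mouse, so the p-values measure only the spread between these samples.

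In EMT, epithelial cells lose junctions and gain migratory, mesenchymal properties. The Snail, Twist and Zeb families repress junction genes such as *Cdh1*, which encodes E-cadherin, and Zeb and Snail proteins bind E-boxes in the promoters of their targets. Esrp proteins act in the epithelial direction and favor the epithelial splice forms of *Fgfr2*, *Cd44* and *Ctnnd1*. Fibroblasts and other stromal cells of a normal mammary gland also make the mesenchymal factors, and a whole gland holds these cells, fat and blood vessels beside the ducts.

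The tissue labels were checked against marker lists, given as the summed MAS 5.0 signal, the array software's linear intensity per probe set. All 14 pan-epithelial markers tested rose in tumors, with sums of 95343.7 to 125942 in tumors and 13232 to 29934.8 in control glands. The 15 fibroblast markers summed to 3433.5 to 20162.9 in tumors and 73566.8 to 90399.8 in control glands, and 12 fell, none rose and 3 did not pass the test (6 fell without control gland 3 and 7 without tumor 2). All 10 adipocyte markers fell, with a median log2 fold change of −5.60. Endothelial markers fell in 10 of 12 (5 to 12 without 1 array) and macrophage markers in 4 of 12 (2 to 4 without 1 array). Lymphocyte markers fell in 3 of 5 (0 to 2 without 1 array). Their sums were 858.2 to 1540.7 in tumors and 2404.9 to 15035.4 in control glands. Of 9 pericyte and smooth muscle markers 2 rose and 3 fell, and of 11 myoepithelial markers 3 rose and 1 fell. Of 6 Schwann cell markers 1 rose, *Sox10* (log2 fold change 2.42), and 2 fell, *Pmp22* (−3.27) and *S100b* (−2.61). Skeletal muscle markers varied among samples of both groups, with sums of 1163.1 to 46698.8 in tumors and 8246.6 to 226280 in control glands, and limma called none of the 10, though 7 fell without tumor 1.

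*Zeb1*, *Zeb2*, *Twist1*, *Twist2*, *Prrx1* and *Vim* fell in tumors and *Esrp1* and *Esrp2* rose, whereas *Snai2* was not called and *Snai1* lay too low to be tested. A call is an adjusted p under 0.05 from limma with Benjamini-Hochberg adjustment over all genes, on log2 signals floored at 50, and every log2 fold change is tumor minus control. Of the 10 genes, 6 fell and 2 rose, where 16.8% of all genes tested fell and 16.3% rose. The 10 were chosen with earlier results of these data known, so the shares are a description and no test. In the same 6 genes every tumor lay below every control gland, as in 23.1% of all genes, and in the same 2 every tumor lay above, as in 27.1%. By single probe set, 18 of the 26 fell and 3 rose, against 15.2% and 13.3% of the 22492 named probe sets tested. A gene was tested where 3 or more arrays reached a signal of 100, and *Twist1* and *Twist2* reached that on the control arrays alone, as did 1443005_at of *Zeb1*, 1454200_at of *Zeb2* and 1425527_at of *Prrx1*, so the members that passed are no unbiased sample of the 10. Each array is a mixture of cells, and fewer cells of a type and less RNA per cell cannot be told apart.

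**Figure D1:**
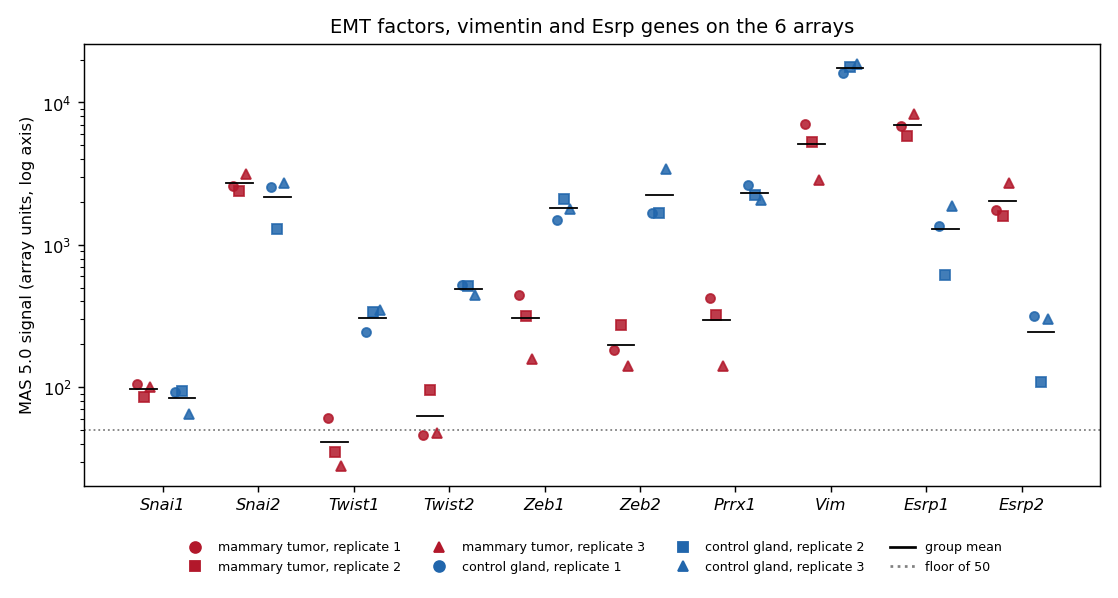
MAS 5.0 signal (log axis) of the 10 genes on the 6 arrays, with the tumors left of the control glands, 1 symbol shape per replicate, a black bar at each group mean and a dotted line at the floor of 50. Tumors lie below control glands for *Twist1*, *Twist2*, *Zeb1*, *Zeb2*, *Prrx1* and *Vim*, above them for *Esrp1* and *Esrp2*, and overlap them for *Snai1* and *Snai2*.

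*Zeb2*, a zinc-finger homeodomain repressor, had signals of 181.6, 271.4 and 140.5 in tumors, against 1661.5, 1660.2 and 3387.0 in control glands. The groups lay far apart, and control gland 3 was the highest array. Its log2 fold change was −3.47 (SE 0.37, 95% confidence interval −4.34 to −2.59, limma adjusted p = 0.000812, n = 3 each), which placed it 209th from the lowest of the 12518 genes. All 5 *Zeb2* probe sets fell, with log2 fold changes of −3.47 to −1.84. On the last of them, 1454200_at, the tumors gave 6.9, 26.6 and 8.7, all under the floor, so its fold change was set by the floor.

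*Zeb1* encodes the paralog of *Zeb2* and recognises the same E-box. It had signals of 443.0, 316.5 and 158.8 in tumors, against 1505.1, 2111.4 and 1781.8 in control glands. The groups did not overlap, and tumor 3 was the lowest array. The log2 fold change was −2.66 (SE 0.38, limma adjusted p = 0.00253). The probe set 1446127_at fell as well (log2 fold change −1.50), with 98.5 to 161.0 in tumors and 331.3 to 426.8 in control glands. So did 1443005_at (−1.35), with 64.2 to 97.0 in tumors and 146.3 to 266.9 in control glands. The last *Zeb1* probe set, 1420243_at, was under 50 on all 6 arrays and was not tested.

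*Prrx1*, a homeobox factor of limb and stromal mesenchyme, had signals of 420.6, 322.0 and 140.5 in tumors, against 2615.0, 2222.8 and 2051.5 in control glands. Tumor 3 was again the lowest array and the groups were well apart. The log2 fold change was −3.10 (SE 0.40, limma adjusted p = 0.00172). The other 4 probe sets tested fell too, with log2 fold changes of −2.51 to −1.37. The smallest of these changes, on 1432129_a_at, came from signals of 100.7, 81.0 and 21.8 in tumors and 265.7, 212.7 and 124.9 in control glands.

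The basic helix-loop-helix factors *Twist1* and *Twist2* were near the lower end of the signal range in tumors. *Twist1* gave 61.1, 35.1 and 28.1 in tumors, against 243.6, 334.7 and 346.2 in control glands, a log2 fold change of −2.51 (SE 0.23, limma adjusted p = 0.00045). *Twist2* gave 46.2, 95.4 and 47.6 in tumors, against 525.2, 511.7 and 440.9 in control glands, a log2 fold change of −2.99 (SE 0.30, limma adjusted p = 0.000633). For both genes 2 of the 3 tumors lay under the floor of 50, and the fold changes depend on it: with a floor of 100 *Twist1* gave −1.61 and *Twist2* −2.30. Neither group overlapped the other for either gene.

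*Vim*, the intermediate filament of mesenchymal cells and of many cultured cells, had signals of 7059.4, 5309.9 and 2843.6 in tumors, against 16208.0, 17635.7 and 18624.3 in control glands. All tumors lay under all control glands, and tumor 3 lay furthest below them. The log2 fold change was −1.88 (SE 0.34, limma adjusted p = 0.00628). The other probe sets gave larger changes of −2.53 and −2.21, and all 3 were highest in tumor 1 and lowest in tumor 3.

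The promoter windows of *Twist1*, *Twist2* and *Vim*, 3 of the 5 genes with a window that fell, and of *Snai1*, the only member window that holds the E-box letters searched, are shown as examples. RefSeq's table (GRCm38.p6) held windows for 6 of the 10 genes, *Snai1*, *Twist1*, *Twist2*, *Zeb2*, *Prrx1* and *Vim*. Those printed are the 250 bases before the annotated start, 5′ to 3′ on the gene's strand, with CACCTG (the E-box letters bound by Zeb and Snail proteins), CCAAT and TATAAA in capitals on either strand.
Twist1 (chr12:33957421-33957670, plus strand): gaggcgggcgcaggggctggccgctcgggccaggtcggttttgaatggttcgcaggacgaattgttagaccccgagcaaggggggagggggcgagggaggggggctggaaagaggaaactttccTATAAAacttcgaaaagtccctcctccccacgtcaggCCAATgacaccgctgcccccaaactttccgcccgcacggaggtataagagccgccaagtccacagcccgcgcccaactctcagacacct
Twist2 (chr1:91801211-91801460, plus strand): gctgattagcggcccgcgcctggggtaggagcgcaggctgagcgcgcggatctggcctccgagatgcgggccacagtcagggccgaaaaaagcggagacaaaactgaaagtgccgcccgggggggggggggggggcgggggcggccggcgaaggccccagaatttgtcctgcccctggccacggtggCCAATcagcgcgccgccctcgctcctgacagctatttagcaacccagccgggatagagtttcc
Vim (chr2:13574061-13574310, plus strand): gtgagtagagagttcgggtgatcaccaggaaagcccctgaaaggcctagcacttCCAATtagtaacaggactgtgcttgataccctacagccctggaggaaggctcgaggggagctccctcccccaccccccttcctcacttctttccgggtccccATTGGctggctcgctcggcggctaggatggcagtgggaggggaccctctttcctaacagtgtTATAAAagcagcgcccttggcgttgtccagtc
Snai1 (chr2:167537945-167538194, plus strand): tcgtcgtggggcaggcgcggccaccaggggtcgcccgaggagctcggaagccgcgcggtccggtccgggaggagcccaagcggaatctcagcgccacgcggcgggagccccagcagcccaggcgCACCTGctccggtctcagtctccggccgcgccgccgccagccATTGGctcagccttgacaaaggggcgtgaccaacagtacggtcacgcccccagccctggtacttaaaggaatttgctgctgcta
The letters CACCTG were found once, in the *Snai1* window with the first base 126 bases before the start, and in none of the other 8 windows of these 6 genes (*Zeb2* has 4 starts). Of all 32851 windows of this length, 17.2% hold CACCTG. The TATA box letters TATAAA stood 32 bases before the start of *Vim* and 126 before that of *Twist1*, where 12.4% of all windows hold it. CCAAT or its reverse ATTGG was in all 4 printed windows and in 1 of the 4 *Zeb2* windows, where 33.8% of all windows hold it. The TCF/LEF letters CTTTGAT were in none of the 9 windows on either strand, where 3.21% of all windows hold them. CANNTG, any E-box, was found only at the CACCTG of *Snai1*, where 66.2% of all windows hold it.

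Neither Snail gene was called. *Snai2*, the Slug repressor, had signals of 2569.9, 2393.6 and 3160.8 in tumors, against 2553.8, 1285.8 and 2703.1 in control glands. The groups overlapped, and control gland 2 alone was low. The log2 fold change was 0.38 with an interval of −0.38 to 1.14 (limma adjusted p = 0.407), and it was not called. The second probe set, 1418673_at, had signals of 759.2, 479.3 and 556.0 in tumors and 449.1, 502.4 and 545.3 in control glands, with overlap and a log2 fold change of 0.24 (limma adjusted p = 0.514). *Snai1*, which encodes Snail, had signals of 104.4, 85.6 and 100.7 in tumors, against 92.1, 94.6 and 64.5 in control glands. Only 2 arrays reached 100, and a 2-sided exact permutation test gave p = 0.4, where 3 against 3 samples cannot go below 0.1. The same permutation test gave p = 0.1 for the brightest probe set of each called member, and 0.5 for that of *Snai2*. By that test alone no member can reach 0.05.

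*Esrp1* and *Esrp2*, the RNA-binding regulators of epithelial exons, rose. *Esrp1* had signals of 6838.5, 5800.1 and 8360.3 in tumors, against 1355.0, 611.5 and 1883.8 in control glands, a log2 fold change of 2.58 (SE 0.41, limma adjusted p = 0.00395). *Esrp2* had signals of 1760.4, 1587.3 and 2713.5 in tumors, against 316.8, 109.0 and 300.2 in control glands, a log2 fold change of 3.17 (SE 0.45, limma adjusted p = 0.00231). Every tumor was above every control gland in both genes, and tumor 3 was the highest and control gland 2 the lowest. *Esrp2* stood 100th from the highest of the 12518 genes and *Esrp1* 213th. The second *Esrp2* probe set, 1419977_s_at, rose by less, with 201.4, 199.8 and 224.6 in tumors and 119.8, 115.8 and 121.2 in control glands (log2 fold change 0.81, limma adjusted p = 0.0218). With the log2 signals of both *Esrp2* probe sets averaged, the log2 fold change was 1.99.

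**Figure D2:**
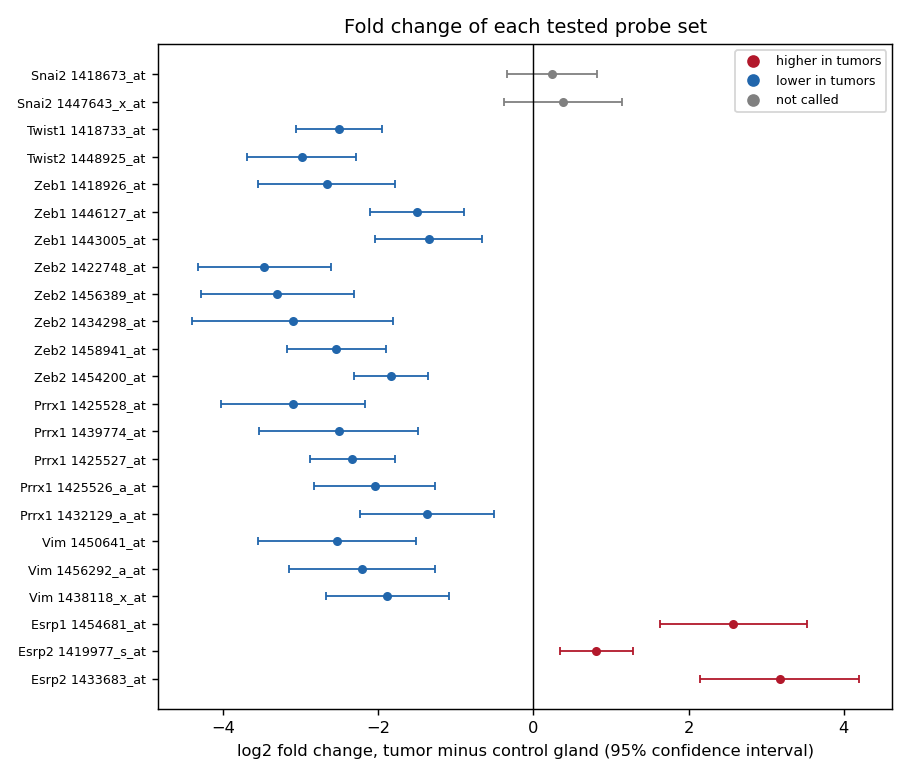
log2 fold change (tumor minus control gland) of the 23 probe sets tested, with 95% confidence intervals, in red where higher in tumors, blue where lower and grey where not called. The 18 blue probe sets run from −3.47 to −1.35, the 3 red ones from 0.81 to 3.17, and both *Snai2* probe sets span 0.

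The members varied among arrays of 1 group along with the marker lists. Tumor 3 was the lowest tumor in 15 of the 18 member probe sets that fell, which read 6 genes, and in all 15 fibroblast markers. It was also lowest in 4444 of the 12518 genes tested. Tumor 3 had the lowest tumor sum of adipocyte (5520.5), macrophage (8658.1), endothelial (2280.6), lymphocyte (858.2) and skeletal muscle markers (1163.1) as well. Tumor 2 had the lowest sum of pericyte and smooth muscle, Schwann cell and myoepithelial markers. The fibroblast sums were 20162.9, 13204.9 and 3433.5 in tumors 1, 2 and 3. Endothelial, macrophage and skeletal muscle sums had the same order of tumors, so this order is not particular to fibroblast markers. Adipocyte and lymphocyte sums were highest in tumor 2. The brightest probe sets of *Prrx1*, *Zeb1* and *Vim* ranked the 3 tumors as the fibroblast sums did, while that of *Zeb2* did not. The other *Zeb1* probe sets tested did not, with 64.2, 85.2 and 97.0 on 1443005_at and 139.8, 161.0 and 98.5 on 1446127_at. Among the other *Prrx1* and *Vim* probe sets tested, only 1425526_a_at of *Prrx1* differed (65.1, 115.6 and 36.3). Control gland 2 was the lowest control in all 3 *Esrp* probe sets and in 13 of the 14 pan-epithelial markers, and in 5512 of the 12518 genes tested. The pan-epithelial sums were 24511.6, 13232 and 29934.8 in control glands 1, 2 and 3. Their skeletal muscle sums were 8246.6, 226280 and 83184.4, so control gland 2 was also the array with the most muscle signal. The highest array over the lowest within a group was 2.99 in tumors and 1.27 in control glands for *Prrx1*, against 1.44 in tumors and 3.08 in control glands for *Esrp1*.

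**Figure D3:**
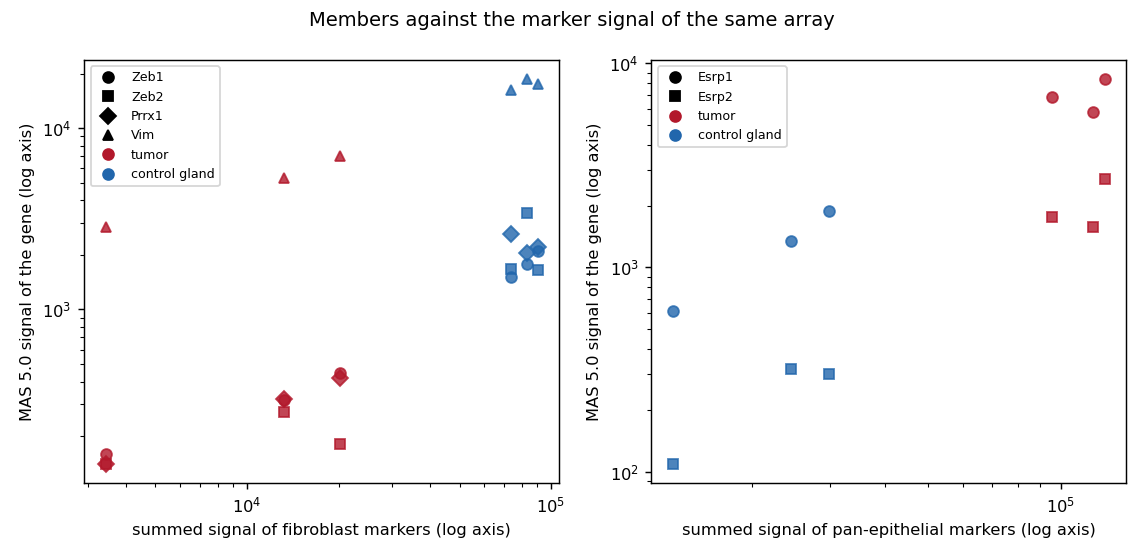
Signal of *Zeb1*, *Zeb2*, *Prrx1* and *Vim* against the summed signal of the 15 fibroblast markers (left) and of *Esrp1* and *Esrp2* against that of the 14 pan-epithelial markers (right), 1 point per array, all axes logarithmic, tumors red and control glands blue. Tumor 3, at a fibroblast sum of 3433.5, is lowest in all 4 genes, and control gland 2, at a pan-epithelial sum of 13232, is lowest in both *Esrp* genes.

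The log2 fold changes of the 6 genes that fell ran from −3.47 to −1.88, where the median was −3.28 for the fibroblast markers and 0.07 for all genes. When arrays were scaled to an equal mean log2 signal of the fibroblast markers, the median over all genes became 3.16. On that scale *Zeb2* stood at −0.38, *Prrx1* at −0.01, *Twist2* at 0.10, *Zeb1* at 0.42, *Twist1* at 0.58 and *Vim* at 1.20. *Snai2* stood at 3.46. This scaling adds the same 3.09 to the log2 fold change of every member, so these values give levels relative to the fibroblast markers and are no further test. On the scale of the deposited signals macrophage markers, another source of *Vim* and *Zeb2* in mammary tissue, had a median of −1.14. Their sums were 8658.1 to 15930.5 in tumors and 25057.5 to 42012.6 in control glands. On the same scale the median was −1.71 for endothelial and −2.26 for lymphocyte markers. Which cells accounted for the members' signals was not tested.

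Genes linked to the repressors were taken from lists by role, and whether the repressors acted on them here was not tested. The first list held 23 genes tested, mostly of junctions and polarity, with *Krt8*, *Krt18*, *St14*, *Muc1* and *Mal2* among the others. Its genes are known to be repressed by Zeb, Snail or Twist proteins or act beside such genes. Of these, 18 rose, none fell and 5 did not pass, with a median log2 fold change of 1.93. Of all genes tested, 16.3% rose and 16.8% fell. *Cldn3* (3.35) and *Cldn7* (3.21), which encode claudins of the tight junction, rose most, followed by the protease gene *St14* (2.60) and the adhesion gene *Epcam* (2.46). *Cdh1* had signals of 12122.7, 10046.2 and 12920.4 in tumors, against 3552.3, 1850.4 and 3925.8 in control glands (log2 fold change 1.98, limma adjusted p = 0.00405), with no overlap. The desmosomal genes *Dsp* (−0.51, limma adjusted p = 0.544) and *Jup* (0.39, limma adjusted p = 0.497) did not pass. Of these 23 genes, 7 are also among the 14 pan-epithelial markers, and 2, *Krt8* and *Krt18*, are also in the filament list below. The count that rose was 9 without the filter on low signals and 10 with the methods' t-test at its threshold.

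Of 21 mesenchymal effector genes tested, 16 fell, 1 rose and 4 did not pass, with a median of −2.43. The shares over all genes tested were 16.8% lower and 16.3% higher. *Pdgfra* (−4.18), a receptor of stromal cells, fell most, followed by the collagen genes *Col5a1* (−3.56), *Col1a1* (−3.44) and *Col6a1* (−3.42). *Acta2*, smooth muscle actin, which myoepithelial cells make too, was the 1 that rose (0.78), and no effector rose after quantile normalization or without tumor 1 or any 1 control gland. *Cdh2*, N-cadherin, had a log2 fold change of −0.59 (limma adjusted p = 0.403) and *Ncam1* one of 0.86 (limma adjusted p = 0.278). The count of effectors that fell was 8 without control gland 3, 9 without tumor 2 and 10 without control gland 2, and it was 6 without the filter and 5 with the methods' t-test at its threshold. The list shares 5 genes with the fibroblast markers.

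Of 14 further mesenchymal transcription factors tested, 3 fell and 2 rose, with a median of −0.16, shares near the 16.8% and 16.3% of all genes. *Tbx15* (−3.25) and *Meox2* (−2.91), developmental factors of mesoderm, fell, as did *Osr1* (−1.46), while *Foxc1* (2.57) and *Sox4* (1.48) rose. *Sox9* (0.04) and *Snai3* (−0.03) lay furthest from a call. Of 12 epithelial factors tested, 7 rose and 2 fell, with a median of 1.58. *Ehf* (3.55), *Grhl1* (3.31) and *Spdef* (3.16) led those that rose. *Foxa1*, a factor of luminal cells, fell most, with 117.9, 106.9 and 93.0 in tumors, against 2736.5, 1921.9 and 2709.8 in control glands. Its log2 fold change was −4.52 (SE 0.23, limma adjusted p = 0.000126). *Klf4* (−1.97) also fell. *Elf3* (0.06) and *Gata3* (0.64), a luminal factor, did not pass. Without any 1 tumor, 3 rose.

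The transcripts whose exons Esrp proteins select are given by level, since these signals do not report which exons were used. Of 17 tested, 2 rose, 2 fell and 13 did not pass, with a median of −0.05, and both shares are under those of all genes tested (16.3% higher and 16.8% lower). *Cd44* (1.33) and *Ctnnd1* (0.74), which encodes p120 catenin, rose. The receptor genes *Fgfr2* (−1.57) and *Fgfr3* (−1.37) fell. Without 1 array, 1 to 2 of the 17 rose and 1 to 3 fell. *Osbpl3* (0.05) and *Slk* (−0.05) lay furthest from a call. Of 19 other splicing regulators tested, 3 rose and 2 fell, again under the shares of all genes, with a median of 0.19. *Rbm47* (2.26), *Khdrbs3* (1.79) and *Mbnl3* (1.03) rose, and *Celf2* (−2.02) and *Mbnl1* fell. *Hnrnph1* (−0.11) and *Khdrbs1* (0.17) were not called.

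Among 22 corepressors and turnover factors of Snail, Twist and Zeb proteins, 5 rose, 1 fell and 16 did not pass, with a median of 0.27. For this list and the filament list below, the shares over all genes tested were 16.3% higher and 16.8% lower. The chromatin enzymes *Ezh2* (1.63) and *Kdm1a* (1.04) rose, with *Suz12* (0.88) of the same Polycomb complex as *Ezh2* and the Zeb corepressor *Ctbp1* (0.66). The kinase gene *Csnk1e* (−0.88) fell. Without 1 array, 2 to 4 of the 22 rose and 0 to 2 fell. *Gsk3b* (−0.02), the kinase that marks Snail for degradation, and *Mdm2* (−0.10) were not called. Of 13 filament genes related to vimentin and their linkers, *Krt8* (2.24), *Krt18* (1.97) and *Lmnb1* (1.23) rose, *Synm* (−2.43) and *Dst* (−2.35) fell, and 8 did not pass, among them *Krt19* (−0.37) and *Lmna* (−0.17). The median of that list was −0.17, and 1 fell without tumor 2.

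**Figure D4:**
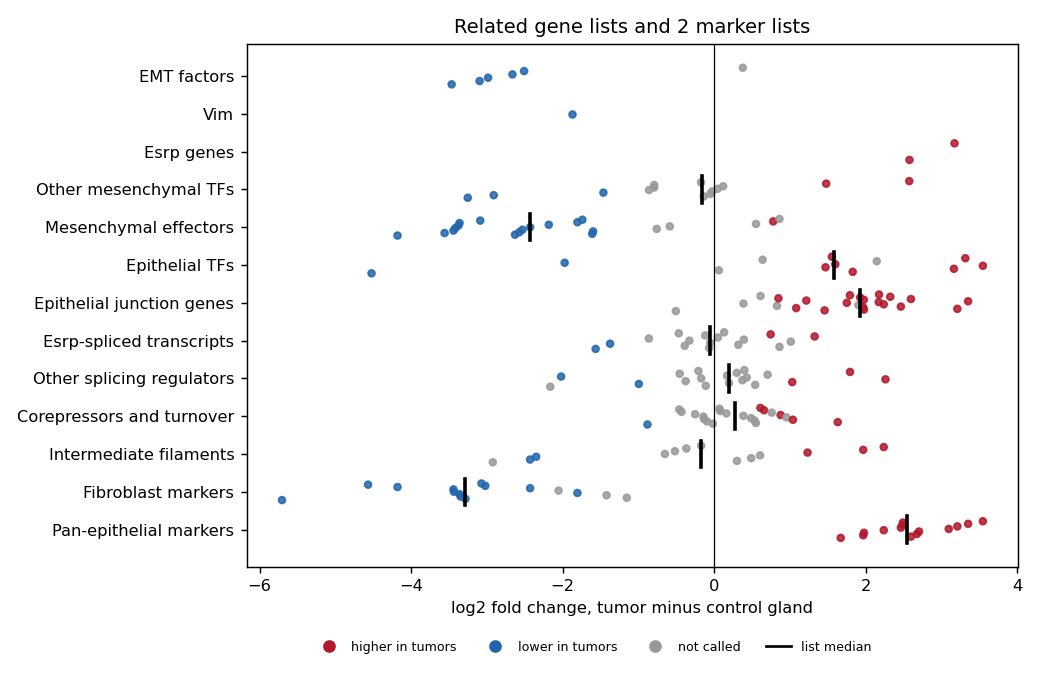
log2 fold change (tumor minus control gland) of every gene tested in the member groups, the related lists and 2 marker lists, 1 point per gene, red where higher in tumors, blue where lower and grey where not called, with a black bar at the median of each related or marker list. Medians run from −3.28 for fibroblast markers to 2.54 for pan-epithelial markers, and the lists of splicing targets and corepressors lie around 0.

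For the 3 called members with the largest fold changes, the genes with the most similar signal over the 6 arrays were noted as a description. *Zeb2* was followed most closely by *Gpr1*, *Nova2* and *Ranbp3l* (Pearson r of 0.999, 0.996 and 0.996 over 6 arrays), *Esrp2* by *Prr15l*, *St14* and *Smarcd2* (0.999, 0.998 and 0.997), and *Prrx1* by *Rasa3*, *Serping1* and *Casp8* (0.999, 0.998 and 0.998). With 3 arrays in each group, any gene that differs strongly between the groups correlates highly.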

How the data were processed

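RNA of 3 mammary tumors and 3 control glands was hybridized to GeneChip M430 2.0 arrays. The deposited values are linear intensity, which the authors computed with MAS 5.0 and scaled to a target signal of 500. The 2% trimmed mean of every array was 500, and 54.3% to 61.5% of probe sets reached a signal of 100. The analysis left out 64 control probe sets of 45101 and the detection calls. The platform annotation gave 1 symbol to 34945, several to 932 and none to 9160. Signals under 50 were set to 50, log2 values were taken, and probe sets of at least 100 on at least 3 of 6 arrays were kept. A gene was represented by its brightest probe set on the mean log2 scale. The comparison used limma 3.58.1 (lmFit, eBayes; R 4.3.3) without a fold limit, and the fit was tested on simulated data. Each probe set was also tested for itself.

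The members and the 21 lists (247 of 262 distinct symbols annotated) were chosen with earlier results of these data known. Named were all members, up to 4 called genes per list with the largest log2 fold change and the 2 with the largest adjusted p, with *Acta2*, *Cdh1*, *Ctbp1*, *Klf4*, *Lmnb1*, *Mbnl1* and *Osr1* added after their values were seen. Alternatives changed the floor, scaling, filter, probe sets and test. The precision is limited by the number of arrays.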

Additional observations from a re-analysis of the deposited data

How the results depend on the processing

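The direction of the 8 called genes and of *Snai2* held under every alternative except the scaling on fibroblast markers. That scaling left 0 members lower (0 also at an unadjusted limma p under 0.05), and reversed *Twist1* (0.58), *Twist2* (0.10), *Zeb1* (0.42) and *Vim* (1.20), with the median of all genes at 3.16, as follows from the 3.09 that it adds to every member. The methods' t-test, which asks for a statistic of 4.5 or more and a 2-fold ratio of means, called 685 genes higher and 920 lower, among them 2 members higher and 5 lower, without *Zeb2*. With Benjamini-Hochberg adjustment it called 67 genes higher and 73 lower, with 0 members higher (2 at an unadjusted p under 0.05) and 1 lower, *Twist2* (5 at an unadjusted p under 0.05). A 2-fold limit left 1329 genes higher and 1818 lower. Equal array medians called 3027 genes higher and 1666 lower, so that 64.5% of the calls were higher, against 49.4% of the 2045 and 2098 calls on the deposited scale, and moved the median of all genes to 0.31. Quantile normalization moved it to 0.13.

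Leaving out 1 array at a time gave 1241 to 1545 genes higher and 1151 to 2012 lower, 2 members higher and 4 to 6 lower, and 2 to 3 member probe sets higher and 12 to 18 lower. Each fit without a control gland gave 4 because *Twist1* and *Twist2* then reached the filter on 2 arrays only and were not tested. In a fit chosen after seeing the data, which kept the genes of the full set, 6 members were lower and 2 higher without any 1 array. Without the filter 14 member probe sets fell and *Snai1* had a log2 fold change of 0.23 (limma adjusted p = 0.499). The deviations of same-numbered tumors and control glands had correlations of −0.22, 0.02 and 0.04, and those of differently numbered ones −0.16 to 0.13. With 3 arrays per group these values cannot settle whether the samples are paired, and the labels do not state it. With the replicate block, 2 members rose and 6 fell, 2 member probe sets rose and 18 fell, and 1630 genes rose and 1860 fell. Of 720 counts of the related and marker lists under the alternatives, 148 moved by over 1.5 times. Low signals limit *Twist1* and *Twist2*, whose tumor values lie near the floor, and *Snai1*, which lies near the filter of 100.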
